A study of Cricetulus griseus with 5 samples.

Results

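The genes described here encode subunits of the mitochondrial respiratory chain and ATP synthase, measured with RNA of the A23 cell line in both channels of 5 two-colour microarrays. Members were taken by gene symbol from the platform's annotation: Nduf subunits (complex I), Sdh subunits (complex II), Uqcr genes and Cyc1 (complex III), Cox4 to Cox8 genes (complex IV) and Atp5 genes (complex V). The pattern found 83 probes for 81 genes among 20868 probes, of which 17786 had exactly 1 symbol. Complex I had 35 probes, complex II 4, complex III 9, complex IV 17 and complex V 18. The symbols are those of mouse genes, some of them older names, and the RNA came from hamster cells.

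A23 cells are Chinese hamster fibroblasts that lack thymidine kinase and serve as the host line for donor chromosome fragments in radiation hybrid panels. All 5 arrays form 1 group: untreated A23 RNA labelled with Cy5 against A23 RNA labelled with Cy3, with the dyes the same way round each time. The series' design text calls them controls for the power to find loci that affect expression of the gene lying at that very position. Since 1 RNA source filled both channels, a log ratio of 0 stands for equal RNA, and each probe was compared with 0. With the dyes never swapped, a dye effect of a probe would recur on every array. The design cannot tell such an effect from any other departure. The questions are which members departed from 0, whether the complexes differed from each other, and how closely the arrays repeated. The labels do not say whether the replicates came from separate cultures or labellings, so the errors and p-values given measure array-to-array spread only, and this may be technical.

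The respiratory chain passes electrons from NADH, through complex I, and from succinate, through complex II, to ubiquinone, then through complex III and cytochrome c to complex IV, which reduces oxygen. Complexes I, III and IV pump protons across the inner mitochondrial membrane, and complex V, the ATP synthase, uses the returning protons to make ATP. Mitochondrial DNA contributes to the subunits of every complex but II. None of the subunits it encodes is among the members, all of which are named nuclear genes. The deposited table holds ratios without signal intensities, so no level of expression, and no check of fibroblast markers by level, could be had from it.

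Values are deposited log ratios, read as log10 although neither the base nor the numerator channel is stated. Folds below hold for that reading, and a positive sign is that of the deposited value. Over all probes the median was 0 on each array, and the SD within an array was 0.119 to 0.127, except on replicate 2, where it was 0.174.

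Members of the respiratory chain and ATP synthase had mostly small positive ratios. Of the 83 probes, 64 had a positive mean over the arrays, 18 a negative mean and 1 a mean of 0, so that 77.1% were positive, against 51.3% of all probes. The median over members was 0.0331, 0.0515, 0.0384, 0.0733 and 0.0378 on replicates 1 to 5, with a mean of 0.0468 ± 0.0163 (SD, n = 5), or 1.11-fold if log10. No array had a member median at or below 0, and replicate 4 was the highest. Ratios were positive on all 5 arrays for 51 members (61.4%), against 13% of all probes, and negative on all 5 for 6 members (7.23%), against 13.4%. In limma's moderated test against 0, adjusted by Benjamini-Hochberg over all probes, 12 members (14.5%) were positive at an adjusted p of 0.05, against 1.41% of all probes (3.42% of all probes in either sign). With a negative ratio 0 members passed, against 2% of all probes; by an unadjusted p of 0.05 in limma, 6 members (7.23%) were negative, against 13.8%, and 51 (61.4%) were positive, against 13.4%. The 12 limma adjusted p-values lay between 0.0298 and 0.04997. Leaving out replicate 1, 2, 3, 4 or 5 left 0 members past the adjusted threshold in limma each time. In each case 48 members were positive at an unadjusted p of 0.05 in limma. The matching shares of all probes were 11.4%, 10.8%, 10.3%, 10.9% and 12.3% without replicates 1 to 5. How many of all probes passed the adjusted threshold in those fits is not given here. The counts, and the shares of all probes called, varied with the fit. Positive member calls were 1 after quantile normalization (background 0.843% positive, 1.69% negative), 22 after scale normalization (2.22% and 2.36%), 27 with array weights (3.54% and 4.04%) and 47 with robust regression (9.22% and 10.2%), which also called 6 members negative. They were 22 among the 77 members with no exact 0 (3.97% and 4.58% of such probes), 3 with a robust variance prior (0.331% and 0.867%) and 6 in an unmoderated one-sample test (0.666% and 1.36%). With probes averaged by gene, 8 of 81 member genes were positive, against 1.05% of all genes.

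**Figure D1:**
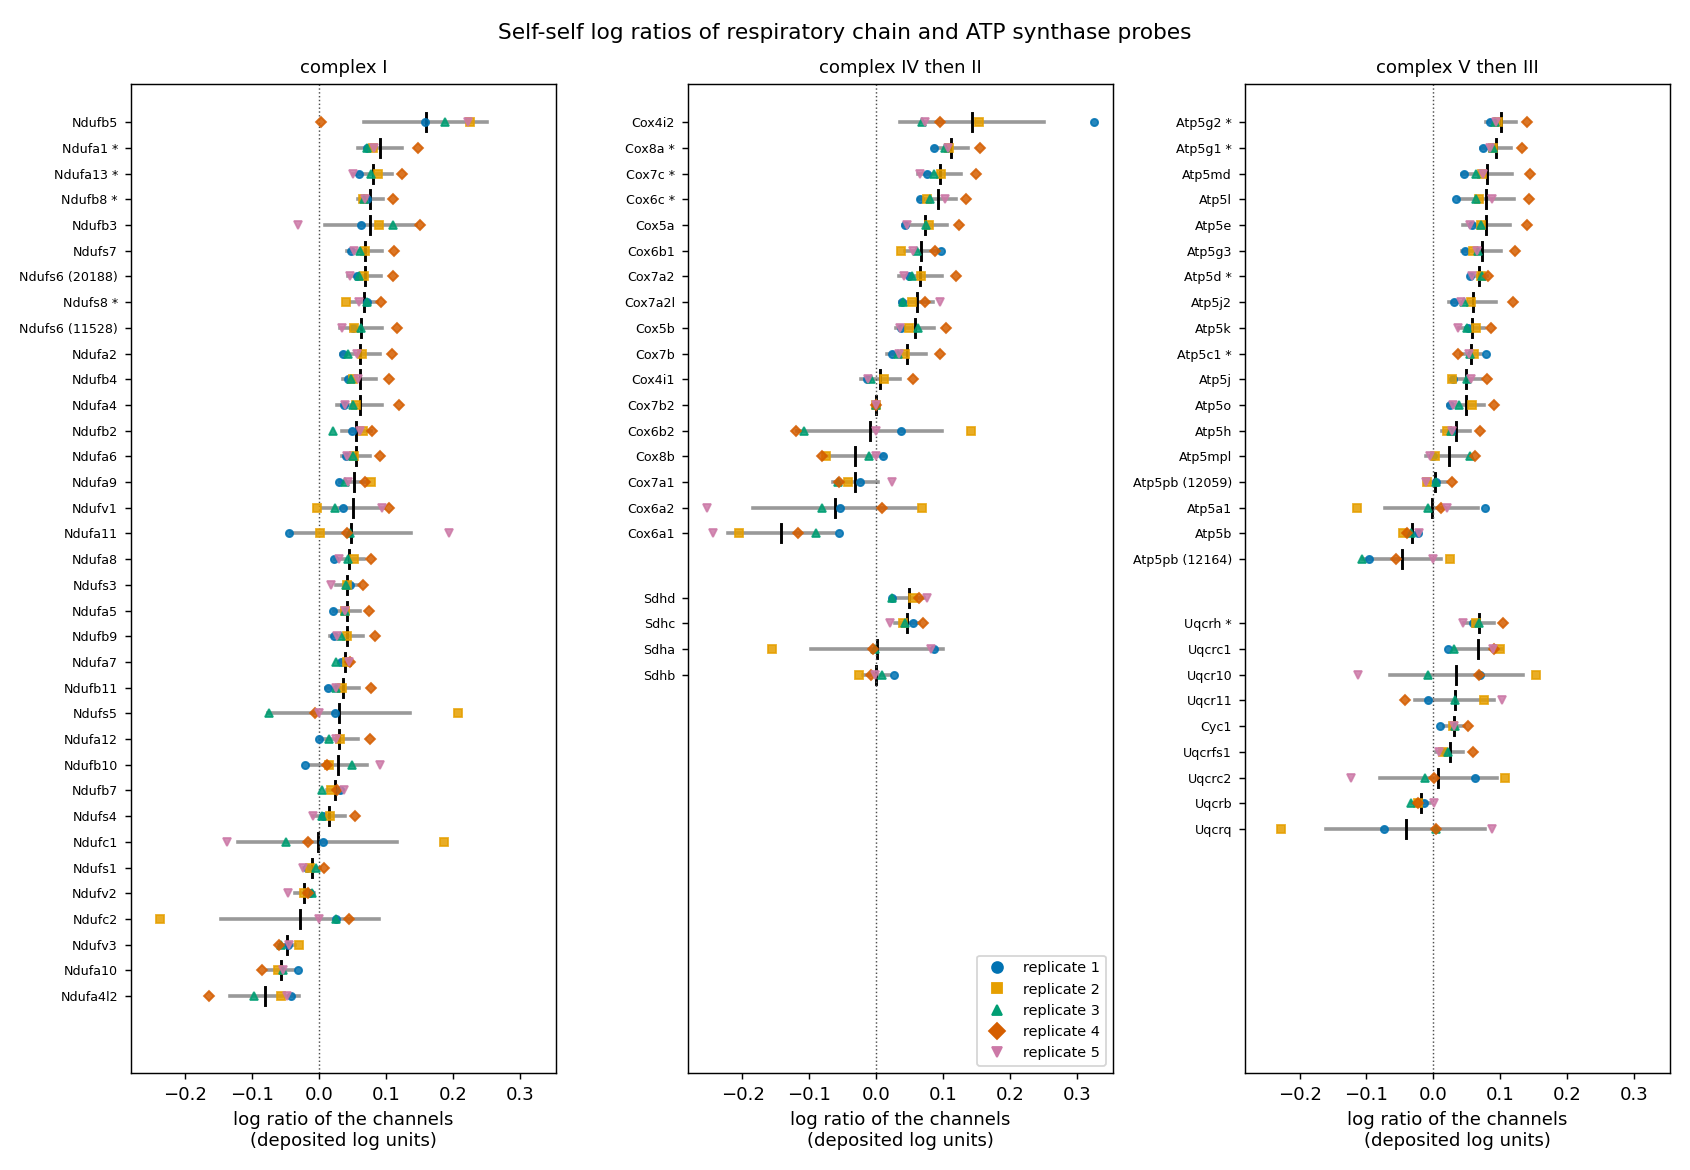
Log ratio of each of the 83 member probes (x axis, deposited log units) on each of 5 arrays (coloured symbols), with the mean as a black tick and 1 SD either side as a grey bar. Probes are ordered by mean within each complex, probe numbers follow symbols with 2 probes, and an asterisk marks the 12 members that passed limma's adjusted p of 0.05. Most means lie right of 0, and the replicate 4 symbol is the rightmost for 50 members.

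Complex I, the NADH dehydrogenase, had 28 positive and 7 negative means among 35 probes. Its median was 0.0311, 0.0420, 0.0390, 0.0756 and 0.0378 on replicates 1 to 5, a mean of 0.0451 ± 0.0175 (SD, n = 5). Replicate 4 stood apart from the other arrays, which overlapped within 0.0311 to 0.0420. The 4 members that passed (11.4%, against 1.41% of all probes) were Ndufa1, Ndufa13, Ndufb8 and Ndufs8.

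Ndufa1, a small accessory subunit of the membrane arm, had ratios of 0.0719, 0.0797, 0.0719, 0.148 and 0.0819, a mean of 0.0907 ± 0.0324 (limma adjusted p = 0.0497). Ndufb8, an accessory subunit of the distal membrane arm, gave 0.0715, 0.0649, 0.0674, 0.110 and 0.0678, a mean of 0.0762 ± 0.0188 (limma adjusted p = 0.0388). In both genes 4 arrays lay within a narrow band and replicate 4 lay above it. Ndufa13, a membrane-arm subunit also studied as a regulator of cell death, had 0.0589, 0.0883, 0.0777, 0.123 and 0.0505, a mean of 0.0798 ± 0.0286 (limma adjusted p = 0.04997). Ndufs8, a core subunit that binds iron-sulfur clusters, gave 0.0706, 0.0393, 0.0711, 0.0925 and 0.0587, a mean of 0.0665 ± 0.0194 (limma adjusted p = 0.0476). Every array was positive for these 2 genes as well.

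The core subunits of complex I, some of which carry its flavin and iron-sulfur clusters, did not move as one. Beside Ndufs8, Ndufs7 had a mean of 0.0679 ± 0.0259 (limma adjusted p = 0.0565), Ndufv1, the subunit that binds NADH and flavin, 0.0507 ± 0.0461, and Ndufs3 0.0421 ± 0.0173. Ndufs1, the largest core subunit, stood at -0.0107 ± 0.0120, with only replicate 4 positive at 0.00711. Ndufv2 was negative on each array, from -0.0464 to -0.0115, with a mean of -0.0222 ± 0.0141. The median over the 6 core probes was 0.0408 ± 0.0229 over the arrays, and that over the 29 other probes of the complex was 0.0468 ± 0.0179.

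Accessory subunits of complex I held the widest range. All 9 Ndufb probes, which belong to the membrane arm, had positive means (against 51.3% of all probes). These ran from Ndufb7 at 0.0235 ± 0.0125 to Ndufb5 at 0.159 ± 0.0920. Ndufb5 had the highest mean of all members, but it rested on 4 arrays at 0.158 to 0.226, while replicate 4 gave 0.00231 (limma adjusted p = 0.0819). That is the reverse of the pattern in most members, where replicate 4 was highest. Ndufa7 had the smallest spread of the complex, at 0.0331, 0.0415, 0.0249, 0.0460 and 0.0449, a mean of 0.0381 ± 0.00895 (limma adjusted p = 0.0609). Ndufc1 had the largest, from -0.139 on replicate 5 to 0.187 on replicate 2, with a mean of -0.00247 ± 0.119. Its partner Ndufc2 gave -0.0286 ± 0.118, set by 1 low array (replicate 2 at -0.238).

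Ndufv2, Ndufv3, Ndufa10 and Ndufa4l2 were negative on every array; these 4 of 35 complex I probes (11.4%) stand beside 13.4% of all probes. Ndufa10, an accessory subunit with a fold like that of nucleoside kinases, had -0.0312, -0.0617, -0.0541, -0.0850 and -0.0539, a mean of -0.0572 ± 0.0193 (limma adjusted p = 0.0538). Ndufv3 was at -0.0481 ± 0.0120 (limma adjusted p = 0.0501). Ndufa4l2, a hypoxia-induced relative of Ndufa4 that is not a structural subunit of complex I, had the lowest mean of the complex, -0.0818 ± 0.0509 (limma adjusted p = 0.0973), with replicate 4 at -0.164. For Ndufv3, Ndufa10 and Ndufa4l2 replicate 4 was the lowest array. Ndufa4 itself, which is now known to be part of complex IV, gave 0.0602 ± 0.0336 and was positive on each array. Scale normalization brought Ndufa10 past the threshold (limma adjusted p = 0.0433).

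Complex II, succinate dehydrogenase, is the 1 complex of the set that also belongs to the citric acid cycle. Its membrane anchors Sdhc and Sdhd were positive on all arrays. Sdhc had 0.0549, 0.0394, 0.0431, 0.0703 and 0.0207, a mean of 0.0457 ± 0.0184 (limma adjusted p = 0.0709). Sdhd had 0.0240, 0.0544, 0.0240, 0.0645 and 0.0751, a mean of 0.0484 ± 0.0235 (limma adjusted p = 0.0811). The catalytic subunits had arrays of both signs: the flavoprotein Sdha gave 0.0869, -0.157, -0.00244, -0.00458 and 0.0815, a mean of 0.000966 ± 0.0984, and the iron-sulfur subunit Sdhb 0.0260, -0.0258, 0.00854, -0.00828 and -0.00201, a mean of -0.000307 ± 0.0193. Sdhb was about as repeatable as the anchors, while Sdha had the largest spread of the complex and was above both anchors on replicates 1 and 5. In limma 0 of the 4 passed, against 1.41% of all probes called positive. At an unadjusted p of 0.05 in limma the 2 anchors did, against 13.4% of all probes positive. With 4 probes these counts are too few to be read apart from those shares.

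Complex III, the cytochrome bc1 complex, had 7 positive and 2 negative means (77.8% positive, against 51.3% of all probes). It had 1 call (11.1%, against 1.41% of all probes called positive). Uqcrh, the hinge protein that contacts cytochrome c1, had 0.0592, 0.0633, 0.0680, 0.104 and 0.0435, a mean of 0.0676 ± 0.0223 (limma adjusted p = 0.0497). The electron-carrying subunits were lower: Cyc1, which encodes cytochrome c1, gave 0.0308 ± 0.0146 and the Rieske iron-sulfur protein Uqcrfs1 0.0243 ± 0.0204, each positive on 5 arrays. The core proteins differed in repeatability, with Uqcrc1 at 0.0666 ± 0.0366 and no array below 0.0223, and Uqcrc2 at 0.0073 ± 0.0871, from -0.123 to 0.107. Uqcrb had the smallest spread of the complex, -0.0185 ± 0.0130. Uqcrq, the ubiquinone-binding protein subunit, had the lowest mean and the largest spread, -0.0410 ± 0.119, with replicate 2 at -0.228 and replicate 5 at 0.0878.

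Complex IV, cytochrome c oxidase, had 11 positive and 5 negative means, and 1 probe at 0 (64.7% positive, against 51.3% of all probes). Its 3 calls (17.6%, against 1.41% of all probes called positive) were Cox8a, Cox7c and Cox6c. Cox8a, the ubiquitous form of subunit VIII, had 0.0860, 0.108, 0.102, 0.154 and 0.107, a mean of 0.111 ± 0.0255 (limma adjusted p = 0.0299), or 1.29-fold if log10. Cox7c gave 0.0761, 0.0964, 0.0855, 0.149 and 0.0659, a mean of 0.0946 ± 0.0325 (limma adjusted p = 0.0481), and Cox6c 0.0649, 0.0762, 0.0801, 0.133 and 0.102, a mean of 0.0914 ± 0.0272 (limma adjusted p = 0.0437). No value of these small membrane-spanning subunits was below 0.0649, and replicate 4 was the highest in each. Cox5a and Cox5b, subunits that face the matrix, were positive throughout at 0.0728 ± 0.0325 and 0.0574 ± 0.0281 without passing. Cox4i1, a nuclear subunit involved in regulation by ATP, differed from them at 0.00619 ± 0.0288, with arrays of both signs. Cox7a2l, a factor of respiratory supercomplexes rather than a classical subunit, was at 0.0602 ± 0.0241 (limma adjusted p = 0.0619).

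Subunits of complex IV occur as ubiquitous and tissue-restricted isoforms, and 6 such pairs were on the array: Cox4i2 is known from lung, Cox6a2, Cox7a1 and Cox8b from heart and skeletal muscle, and Cox6b2 and Cox7b2 from testis. Both channels held A23 RNA, so a higher ratio is not a higher expression of an isoform. The ubiquitous form had the higher ratio on all 5 arrays in 3 pairs. Cox8a exceeded Cox8b, at -0.0315 ± 0.0432, by 0.143 ± 0.0648 (SD of the difference, n = 5). Cox7a2 at 0.0659 ± 0.0315 exceeded Cox7a1 at -0.0316 ± 0.0334 by 0.0975 ± 0.0577. Cox7b at 0.0455 ± 0.0289 exceeded Cox7b2, which was listed at exactly 0 on every array. That pair therefore says only that Cox7b was positive on each array. Cox6b1 at 0.0671 ± 0.0248 was above Cox6b2, at -0.00992 ± 0.108, on 4 arrays. In the remaining pairs the restricted form had the higher mean. Cox4i2 had 0.325, 0.154, 0.0676, 0.0945 and 0.0734, a mean of 0.143 ± 0.108 (limma adjusted p = 0.124), and was above Cox4i1 on all 5 arrays, with Cox4i1 minus Cox4i2 at -0.137 ± 0.119. Cox6a1 had -0.0554, -0.205, -0.0904, -0.118 and -0.244, a mean of -0.142 ± 0.0791 (limma adjusted p = 0.0772), the lowest of all members. Its restricted partner Cox6a2 was at -0.0622 ± 0.121 (-0.0146 without replicate 5). Cox6a1 minus Cox6a2, -0.0801 ± 0.121, was within its spread, as was Cox6b1 minus Cox6b2, 0.0770 ± 0.122. Among the 6 restricted isoforms 0 passed in limma. Cox4i2 did at an unadjusted p of 0.05 in limma (16.7%, beside 13.4% of all probes positive), too few to be read apart from that share. An exact 0 on at least 1 array was listed for 3 (50.0%, against 25.7% of all probes). Replicate 4 was the highest for 0 of the 5 that varied, against 19.1% of all probes. These counts are likewise too few to be read apart from the shares beside them.

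**Figure D2:**
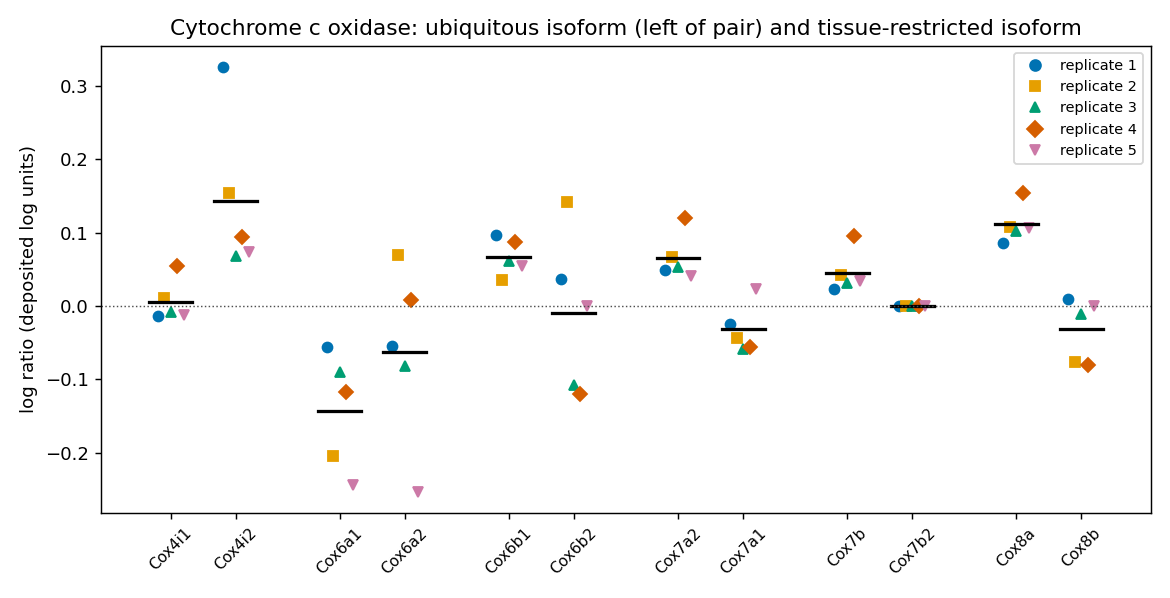
Log ratios (y axis, deposited log units) of 6 pairs of cytochrome c oxidase isoforms on 5 arrays (coloured symbols), with the mean as a black line. The ubiquitous form is on the left of each pair; Cox8a, Cox7a2 and Cox7b lie above their partners on every array, and Cox6a1 and Cox4i1 have lower means than theirs.

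Complex V, the ATP synthase, had 15 positive and 3 negative means among 18 probes (83.3% positive, against 51.3% of all probes). It had 4 calls (22.2%, against 1.41% of all probes called positive). The c subunits that form the rotating ring in the membrane come from 3 genes whose mature proteins are the same, and these were among its highest members. Atp5g2 had 0.0844, 0.0959, 0.0918, 0.140 and 0.0938, a mean of 0.101 ± 0.0221 (limma adjusted p = 0.0298), 1.26-fold if log10. Atp5g1 had 0.0746, 0.0884, 0.0896, 0.132 and 0.0848, a mean of 0.0939 ± 0.0221 (limma adjusted p = 0.0341). Atp5g3 was at 0.0724 ± 0.0291 (limma adjusted p = 0.0585). The arrays repeated the ring genes closely apart from replicate 4: their median SD was 0.0221, and 0.00679 without replicate 4. No probe sequence was at hand, so how well the probes tell the 3 transcripts apart was not tested.

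In the catalytic F1 part of the ATP synthase, the central stalk subunits were positive on all arrays: Atp5d (delta) had 0.0542, 0.0718, 0.0732, 0.0823 and 0.0573, a mean of 0.0678 ± 0.0117 (limma adjusted p = 0.0340), Atp5c1 (gamma) 0.0567 ± 0.0149 (limma adjusted p = 0.0481), and Atp5e (epsilon) 0.0791 ± 0.0349 (limma adjusted p = 0.0632). Atp5c1 ran 0.0782, 0.0610, 0.0541, 0.0370 and 0.0532, with replicate 4 the lowest. Of the subunits of the catalytic hexamer, Atp5b (beta), with the smallest spread of the complex, had -0.0229, -0.0455, -0.0328, -0.0401 and -0.0211, a mean of -0.0325 ± 0.0106 (limma adjusted p = 0.0806), and was negative on each array. Atp5a1 (alpha), with the largest spread, had 0.0769, -0.114, -0.00753, 0.0118 and 0.0200, a mean of -0.00262 ± 0.0699 that was 0.0253 without replicate 2. Every value of Atp5b lay below every value of the central stalk subunits. Scale normalization brought Atp5e past the threshold (limma adjusted p = 0.0479).

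The other membrane and peripheral stalk subunits of the ATP synthase listed here were Atp5h, Atp5j, Atp5j2, Atp5k, Atp5l and Atp5o. They were positive on all 5 arrays in 6 of 6 cases (against 13% of all probes). Replicate 4 was the highest in each (against 19.1% of all probes), with means from 0.0340 for Atp5h to 0.0794 for Atp5l. The list does not hold the other small members Atp5md, at 0.0804 ± 0.0373 and positive on all arrays, and Atp5mpl, at 0.0228 ± 0.0332 with replicates 1 and 5 below 0. Atp5pb, the b subunit of the peripheral stalk, is also outside the list, and neither of its probes was positive on all arrays. It was the 1 member whose 2 probes differed in sign, with 0.00279 ± 0.0159 for feature 12059 and -0.0467 ± 0.0582 for feature 12164. Their difference, 0.0495 ± 0.0678, did not exceed its spread. Replicate 4 was the highest for feature 12059 and replicate 2 for feature 12164. Ndufs6, the other member with 2 probes, gave 0.0629 ± 0.0316 and 0.0677 ± 0.0246, and its probes were never more than 0.0159 apart on an array.

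The complexes were then compared with each other on each array. Mean values of the array medians were 0.0565 ± 0.0168 (SD, n = 5) for complex V, 0.0507 ± 0.0218 for IV, 0.0451 ± 0.0175 for I, 0.0369 ± 0.0196 for III and 0.0283 ± 0.0169 for II, and the array medians of each complex were all positive. The same probes recur on each array, so the SDs here leave out the spread among probes of a complex. Within an array the interquartile range over members was 0.0497 to 0.0988. Complex I means ran from -0.0818 for Ndufa4l2 to 0.159 for Ndufb5. Whether the order of complexes would hold for other probes was not tested. Of the 10 pairs, 1 kept its order on all 5 arrays: complex V was above complex I. Coded as I minus V, the difference was -0.00917, -0.0169, -0.0135, -0.00836 and -0.00927 on replicates 1 to 5, and its mean was -0.0114 ± 0.00364, and it exceeded its spread in 12 of 13 alternatives, the exception being means in place of medians (-0.00837 ± 0.00881). The difference was larger than its spread over arrays in 2 more pairs, II minus V at -0.0283 ± 0.0272 and III minus V at -0.0196 ± 0.0149, although complex II was above V on replicates 1 and 5, by 0.000218 and 0.000887, and complex III on replicate 2. III minus V exceeded its spread in 13 of 13 alternatives and II minus V in 9. II minus V fell within it without replicate 2 (-0.0223 ± 0.0274), 3 (-0.0263 ± 0.0310) or 4 (-0.0218 ± 0.0266) and by means (-0.0220 ± 0.0315). Some of the 13 could not move these 2 pairs and returned the same values. They were centring on probes with 1 symbol, leaving out non-subunits or restricted isoforms, and counting Ndufa4 with complex IV. For I minus V, centring and leaving out restricted isoforms likewise changed nothing. In the other 7 pairs the mean difference was within 1 SD. Neighbours in the order V, IV, I, III, II did not differ beyond their spread: IV minus V was -0.00585 ± 0.00637, I minus IV -0.00559 ± 0.00625, I minus III 0.00818 ± 0.0176 and II minus III -0.00865 ± 0.0322. Alternatives took some neighbours past their spread: I minus III was 0.0155 ± 0.00705 without replicate 2 and 0.0147 ± 0.00535 by means, and IV minus V was -0.00816 ± 0.00431 without replicate 4 and -0.00913 ± 0.00746 with probes averaged by gene. I minus IV passed its spread in 4 of 13, and II minus III turned sign without replicate 2 (0.00332) and by means (0.00107). The place of complex IV depended on its isoforms, since without the 6 restricted ones it stood at 0.0614 ± 0.0248, which is 0.00490 above V and 0.0163 above I.

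**Figure D3:**
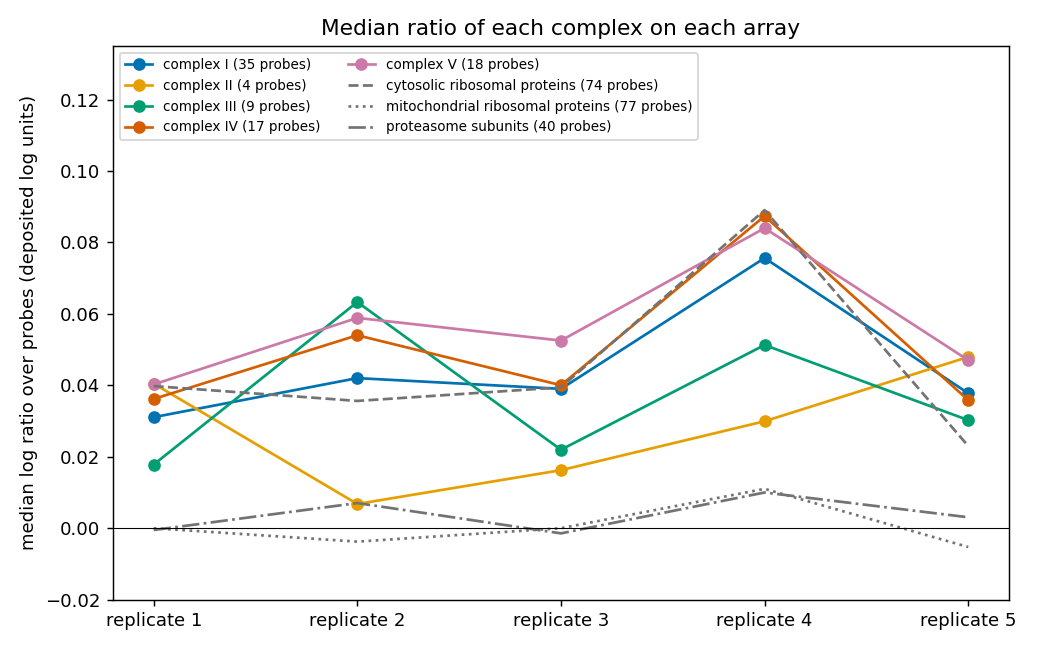
Median log ratio over the probes of each complex (y axis, deposited log units) on each of 5 arrays (x axis), with 3 other gene groups in grey; lines join values of 1 group and imply no order of the arrays. Complexes I, IV and V reach 0.0756, 0.0874 and 0.0840 on replicate 4, complexes II and III do not have their highest value there, and mitochondrial ribosomal protein and proteasome medians stay between -0.00526 and 0.0110.

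Replicate 4 was the array on which members were farthest from 0. It was the highest array for 50 of the 82 members that varied (61.0%), against 19.1% of all probes, and for 24 of 35 probes of complex I, 14 of 18 of V and 8 of the 16 of IV that varied, but 3 of 9 of III and 1 of 4 of II. Of the 57 members with 1 sign on all arrays, 45 (78.9%) had their largest absolute ratio on replicate 4, against 30.2% of such probes in the whole table. Cytosolic ribosomal protein probes shared this, with replicate 4 highest for 61 of 74 (82.4%) and a median of 0.0890 there; for mitochondrial ribosomal proteins it was highest for 29 of the 76 that varied. The member median without replicate 4 was 0.0402. The within-array SD over all probes on replicate 4, 0.127, lay close to the others. No batch is given in the labels, and the part of any difference in handling was not tested.

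Arrays repeated members more closely than probes at large. The median between-array SD of a member was 0.0272 log units, against 0.0588 for all probes. By complex it was 0.0247 for I, 0.0214 for II, 0.0366 for III, 0.0315 for IV and 0.0245 for V. Without replicate 4 the member median was 0.0137 and those of I, IV and V were 0.0132, 0.0187 and 0.0111, while that of all probes was 0.0567; complexes II (0.0234) and III (0.0395) did not become tighter. Cytosolic ribosomal proteins went from 0.0308 to 0.0142 and mitochondrial ribosomal proteins from 0.0353 to 0.0339. Over all 5 arrays proteasome subunits, at 0.0232, were tighter than the members, and citric acid cycle genes stood close to them at 0.0290. A small spread was thus not particular to the members. An exact 0 on at least 1 array was listed for 6 members (7.23%), Ndufc2, Ndufs5, Cox6b2, Cox7b2, Cox8b and feature 12164 of Atp5pb, against 25.7% of all probes.

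**Figure D4:**
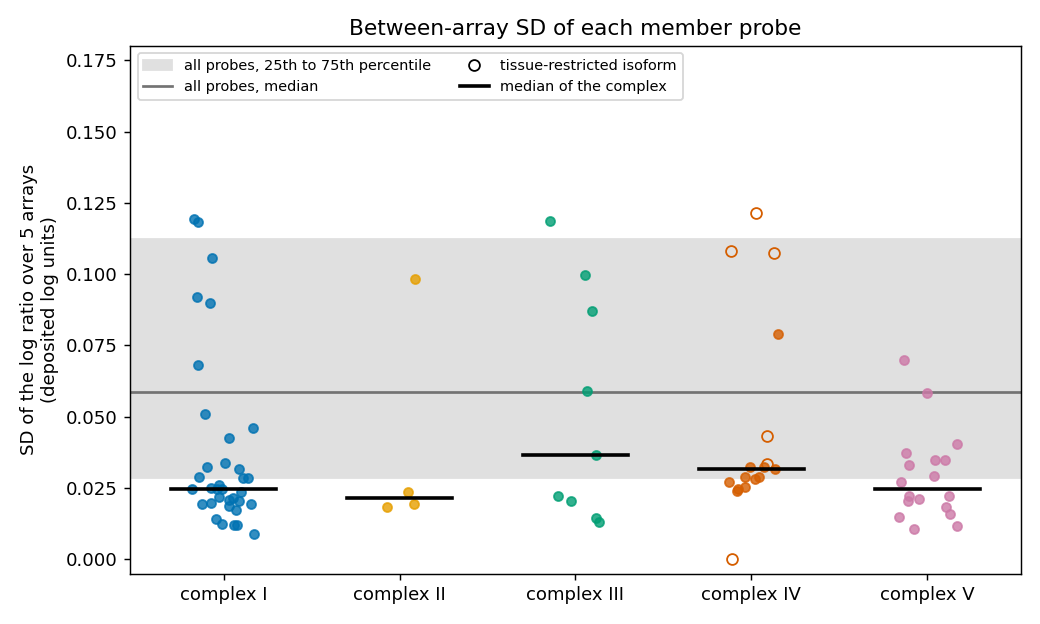
SD of the log ratio over 5 arrays (y axis, deposited log units) for each member probe by complex, with the median of each complex as a black line and the median and middle 50 percent of all probes in grey. The complex medians of 0.0214 to 0.0366 lie below the median of 0.0588 for all probes; open circles are tissue-restricted isoforms of complex IV.

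These spreads set how small a departure such a set of 5 arrays could show. For a two-sided test of 1 probe with power 0.8 and an unadjusted threshold of 0.05, the smallest detectable ratio was 1.68 times the probe's SD. Read as log10, the median member could show a 1.11-fold departure, and 75 of the 82 members that varied (91.5%) could show 1.5-fold, against 71.5% of all probes that varied. All 18 probes of complex V and all 4 of complex II could do so, with 32 of 35 in complex I, 8 of 9 in III and 13 of 16 in IV. The members that could not were Ndufc1, Ndufc2, Ndufs5, Uqcrq, Cox4i2, Cox6a2 and Cox6b2. Of probes that varied, 94.6% of cytosolic ribosomal, 86.8% of mitochondrial ribosomal and 87.2% of proteasome probes could show 1.5-fold.

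Other genes of the pathway were read against the same shares of all probes (1.41% called positive, 2% called negative, and 13.4% positive and 13.8% negative at an unadjusted p of 0.05), and most of these lists are too short to be read apart from them. Genes listed as assembly factors of the 5 complexes had 28 positive and 9 negative means among 38 probes (36 of 45 listed genes had a probe). Their median was 0.0224 ± 0.0132 (SD, n = 5) over arrays. Among them, Ndufab1, at 0.0658 ± 0.0768 the highest of the complex I factors, is itself a subunit of the finished complex. Atpif1, at -0.0279 ± 0.0202, is an inhibitor of the ATP synthase. Both are counted in the factor medians below. By complex, the factors' array medians averaged -0.00733 ± 0.0214 for I, 0.0307 ± 0.0695 for II and 0.0339 ± 0.0246 for III. They averaged 0.0342 ± 0.0215 for IV and 0.0123 ± 0.0136 for V. The subunits stood at 0.0451, 0.0283, 0.0369, 0.0507 and 0.0565 for I to V. The spread for the 4 factor probes of complex II was larger than their mean. Of the 38, 2 passed against a background of 1.41%, both positive: Uqcc2, an assembly factor of complex III, with 0.0442, 0.0459, 0.0435, 0.0471 and 0.0502, a mean of 0.0462 ± 0.00266 (limma adjusted p = 0.0437), and Cox11, a copper chaperone of complex IV, at 0.186 ± 0.0700 (limma adjusted p = 0.0488). Uqcc2 was the most repeatable gene named here other than the constant 0 of Cox7b2, and its replicate 4 value lay within the range of the other arrays. Ubiquinone synthesis and electron carrier genes had 5 positive and 8 negative means among 13 probes, with 0 passing in limma; by an unadjusted p of 0.05 they had 1 positive and 4 negative, against 13.4% and 13.8% of all probes. Citric acid cycle genes had 6 of each sign among 12 probes and 1 call, Sucla2, a subunit of succinyl-CoA synthetase, at 0.150 ± 0.0591 (limma adjusted p = 0.0499). Transcriptional regulators of mitochondrial genes had 6 positive and 4 negative means among 11 probes and 1 call, the nuclear receptor gene Esrra, at 0.0810 ± 0.0270 (limma adjusted p = 0.0488).

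Proton pumps and protein complexes outside the chain gave a reference for the size of the shift. Subunits of the vacuolar ATPase, a proton pump of acidic organelles related to the ATP synthase, had a median of 0.0162 ± 0.0074 (SD, n = 5), 9 positive and 7 negative means and 0 calls in limma (by an unadjusted p of 0.05, 5 positive and 2 negative, against 13.4% and 13.8% of all probes). Medians were 0.0454 ± 0.0253 for 74 cytosolic ribosomal protein probes, of which 5 passed, all positive, 0.000401 ± 0.00637 for 77 mitochondrial ribosomal protein probes, of which 1 passed with a positive ratio, close to the 1.41% of all probes, and 0.00363 ± 0.00488 for 40 proteasome probes, of which 0 passed in limma (by an unadjusted p of 0.05, 7 positive and 3 negative, beside the 13.4% and 13.8% above). No test was made between these groups and the respiratory chain; its member median of 0.0468 stood beside that of the cytosolic ribosomal proteins and above the other 3.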

How the data were processed

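Per the labels' protocols, 20 µg of A23 total RNA per sample was directly labelled with Cy5 or Cy3. The deposited table holds 1 log ratio per probe and array, read here as log10: a median of 0 and both signs in each column mark a log ratio, but not its base, so log10 is an assumption. The authors' image quantification and normalization are not given in the sources used here, and neither is the numerator channel. Probes were named from the platform's annotation table, where 16 probes had several symbols and were not named. Each of 20868 probes was fitted against 0 in limma 3.58.1 under R 4.3.3 (lmFit with an intercept, eBayes) on all 5 arrays, two-sided, with Benjamini-Hochberg adjustment over all probes at 0.05. The fit was tested on simulated data. Complexes were compared by the median over probes on each array, with the mean and SD over arrays; no p-value was computed for such scores. Alternatives were other scalings, fits, member sets and leaving out each array.

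The members, gene lists and tests were chosen with earlier results of these data known. Genes named are those past the threshold, the 2 highest and 2 lowest means and the largest and smallest SD of each complex, all of complex II, core subunits, listed isoforms and non-subunits, members whose probes differ in sign, and called genes of the other lists. Others named were chosen after their values were seen.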

Additional observations from a re-analysis of the deposited data

Results flagged for a closer look

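In 13 of the 82 members that varied, 1 array lay farther from the other 4 than Dixon's 95% limit allows, which chance exceeds in about 1 in 20 groups. That share, 15.9%, was close to the 14.2% of all probes that varied. In 12 members (14.6%) the array was replicate 4, as the highest value, against 2.09% of all probes. In complex I these were Ndufa1 at 0.148 (other arrays 0.0719 to 0.0819), Ndufa4 at 0.119 (0.0374 to 0.0555), Ndufb8 at 0.110 (0.0649 to 0.0715), Ndufb4 at 0.104 (0.0429 to 0.0582) and Ndufa6 at 0.0910 (0.0396 to 0.0526). In complexes III and IV they were Uqcrfs1 at 0.0596 (0.00774 to 0.0220) and Cox7b at 0.0957 (0.0230 to 0.0425). In the ATP synthase they were Atp5e at 0.140 (0.0551 to 0.0718), Atp5g2 at 0.140 (0.0844 to 0.0959), Atp5g1 at 0.132 (0.0746 to 0.0896), Atp5g3 at 0.123 (0.0475 to 0.0670) and Atp5h at 0.0703 (0.0199 to 0.0277). The median of complex I on replicate 4, 0.0756, stood apart in the same way from 0.0311 to 0.0420 on the others. The 13th member was Ndufc2, with -0.238 on replicate 2 against 0 to 0.0447. These values share an array and are not independent of each other, and what set replicate 4 apart was not tested.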

How the results depend on the processing

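The 12 positive member calls became 1 after quantile normalization, 3 with a robust variance prior, 6 in an unmoderated one-sample test, 22 after scale normalization, 22 among the 77 members with no exact 0, 27 with array weights, 47 with robust regression and 0 to 0 with 1 array left out, while 8 of 81 genes passed when probes were averaged. Negative calls, 0 as planned, were 1 after scale normalization, 1 in the unmoderated test, 2 with array weights, 2 without zeros and 6 with robust regression. The cause was not tested. Of the 12, Atp5d alone was kept after quantile normalization. Scale normalization also called Ndufs7 (limma adjusted p = 0.0427) and Ndufa7 (0.0485).

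All 65 alternative complex medians stayed within 1 SD of the value given. That count, and the count of differences given next, include alternatives that could not change the complex concerned. I minus IV was 0.00568 and IV minus V -0.0141 with means in place of medians, and -0.0163 and 0.00490 without restricted isoforms; the other 126 differences moved by less than 1 SD. The median SD was 0.0373 in complex I and 0.0399 in II by means and 0.0410 in V after quantile normalization, and ranged over left-out arrays from 0.0132 to 0.0284 in I, 0.0187 to 0.0364 in IV and 0.0111 to 0.0279 in V. Means near 0 changed sign: Sdhb was 0.00141 and 0.00232, and Atp5a1 0.00596 and 0.00388, after quantile and scale normalization. With arrays left out, ranges crossed 0 for Ndufc1 (-0.0498 to 0.0316), Sdha (-0.0205 to 0.0403), Sdhb (-0.00689 to 0.00607), Uqcrc2 (-0.0177 to 0.0398), Uqcrq (-0.0733 to 0.00557), Cox4i1 (-0.00591 to 0.0113), Cox6b2 (-0.0478 to 0.0175), Atp5a1 (-0.0225 to 0.0253) and feature 12059 of Atp5pb (-0.00354 to 0.00634). No paired analysis was possible because the arrays form 1 group. The number of arrays limits the precision, and the brightness behind a ratio is unknown.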

Other observations

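Markers of cell types gave ratios without levels. The 8 fibroblast marker probes had 4 positive and 4 negative means and an array median of 0.000868 ± 0.0113 (SD, n = 5), 4 epithelial markers 0 positive and 4 negative means at -0.0314 ± 0.0428, and 4 skeletal muscle markers 3 positive and 1 negative at 0.0156 ± 0.0222. In limma 0 of the 16 passed; at an unadjusted p of 0.05, 2 fibroblast markers were positive and 1 negative, and 1 muscle marker was positive, too few to be read apart from the 13.4% positive and 13.8% negative of all probes.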
